A study of Mus musculus with 7 samples.

Results

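Imprinted gene domains, 8 in number, were examined in sequenced hippocampal DNA that had been enriched for 5-hydroxymethylcytosine (5hmC), an oxidised form of methylated cytosine. Imprinted genes are expressed mainly or solely from the allele of 1 parent. The domains were fixed by coordinates on the mouse build mm9 and comprised 3280 of the 5451548 bins of 500 bp in the table of read counts. Each domain was set beside the 200 kb on either side of it, which together made 6400 bins of flank. The libraries were 4 from Tet2 conditional knockout mice (Tet2 CKO) and 3 from wild-type mice (WT), all C57BL/6 and unstressed. The age of the mice and the promoter that drives the deletion are not given in the sources used here, nor whether each library is a separate animal, and p-values therefore refer to the scatter among libraries, some of which may be technical. In bulk tissue, less 5hmC per cell and fewer cells that carry it cannot be told apart.

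The H19-Igf2-Kcnq1 domain was the longest, at 950 kb (chr7:149750001-150700000), and is named for the non-coding RNA H19, the growth factor gene Igf2 and the potassium channel gene Kcnq1. The Dlk1-Meg3 domain spanned 320 kb (chr12:110680001-111000000), with Dlk1 encoding a Notch-like membrane protein and Meg3 a non-coding RNA. The Grb10 domain spanned 110 kb (chr11:11830001-11940000), and Grb10 encodes an adaptor that restrains insulin and growth factor receptor signalling. The Igf2r domain spanned 100 kb (chr17:12870001-12970000), and Igf2r encodes a receptor that carries Igf2 to lysosomes. The Gnas domain spanned 70 kb (chr2:174105001-174175000), and Gnas encodes the alpha subunit of the stimulatory G protein. The Snrpn domain spanned 40 kb (chr7:67120001-67160000), and Snrpn encodes a splicing factor abundant in brain. The Peg3 domain spanned 35 kb (chr7:6655001-6690000), and Peg3 encodes a zinc finger protein. The Mest domain spanned 15 kb (chr6:30685001-30700000), and Mest encodes a protein of the alpha/beta hydrolase fold. No annotation of mm9 was at hand, so places inside a domain are given by position and not by gene.

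Imprinted clusters are governed by control regions that carry 5-methylcytosine on the chromosome of 1 parent only, laid down in the germ line and kept in the tissues of the body. The TET dioxygenases, of which Tet2 encodes a member, oxidise 5-methylcytosine to 5hmC, and 5hmC is abundant in neurons. Several of these genes follow the usual rule of their cluster less strictly in the brain, where Grb10 is expressed from the paternal allele in neurons. Reads from an antibody enrichment do not tell the 2 parental alleles apart.

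5hmC in neurons lies mostly at CpG dinucleotides, and the promoters of imprinted genes differ widely in how many they hold. RefSeq promoter sequences of the build GRCm38.p6 were matched by symbol for 12 of 16 genes looked up in these clusters. They were not placed on the mm9 bins, so they show base content and are not tied to any read count given here. The 250 bases before the start of the gene are printed for Mest, Grb10 and Peg3, whose domains had the largest log2 differences between the genotypes in their ratio to the flanks, and for Snrpn, whose domain was the poorest in reads, taking for each gene the listed promoter with the most CpG. Capitals mark CpG, the 2 letters CG, which read the same on both strands, and each sequence is written 5′ to 3′ on the strand of its gene.
Grb10 promoter, minus strand: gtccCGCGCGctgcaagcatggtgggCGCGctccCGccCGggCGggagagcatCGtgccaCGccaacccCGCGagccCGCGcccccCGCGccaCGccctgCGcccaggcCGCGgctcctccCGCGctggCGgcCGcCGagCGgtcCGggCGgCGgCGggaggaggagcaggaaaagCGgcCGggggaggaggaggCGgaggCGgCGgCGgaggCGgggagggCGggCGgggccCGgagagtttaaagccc
Mest promoter, plus strand: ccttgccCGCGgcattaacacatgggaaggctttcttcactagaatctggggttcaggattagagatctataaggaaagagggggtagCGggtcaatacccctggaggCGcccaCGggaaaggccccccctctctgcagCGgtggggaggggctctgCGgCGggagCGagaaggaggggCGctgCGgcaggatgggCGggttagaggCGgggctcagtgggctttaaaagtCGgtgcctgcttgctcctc
Peg3 promoter, minus strand: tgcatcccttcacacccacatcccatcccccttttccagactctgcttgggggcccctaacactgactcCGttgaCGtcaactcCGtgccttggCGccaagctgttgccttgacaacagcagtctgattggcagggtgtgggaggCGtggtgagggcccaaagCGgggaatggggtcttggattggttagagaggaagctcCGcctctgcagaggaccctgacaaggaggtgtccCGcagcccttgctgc
Snrpn promoter, minus strand: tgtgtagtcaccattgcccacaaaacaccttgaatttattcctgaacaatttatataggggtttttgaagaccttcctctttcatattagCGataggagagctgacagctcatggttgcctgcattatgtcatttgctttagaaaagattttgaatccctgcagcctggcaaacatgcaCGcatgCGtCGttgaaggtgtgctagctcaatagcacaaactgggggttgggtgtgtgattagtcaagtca
The Grb10 promoter held 40 CpG, a number reached by 1.31% of the 32851 promoters in the table. Mest held 14, a number reached by 29.4% of promoters, Peg3 held 8 (43.0%) and Snrpn held 4 (62.2%), where the median promoter held 6.

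Libraries held from 26134505 to 49414761 reads, and the 8 domains together from 4079 to 26141. High-count bins, with over 100 reads on average, took 50.3% to 74.1% of the reads in Tet2 CKO libraries and 29.8% to 54.3% in WT libraries. They were left out of the levels, which are given as RPKM, here reads per kb per 1000000 reads outside high-count bins. None of them lay in a domain and 1 lay in a flank, that of Grb10. Tet2 CKO replicates 2 and 3 stood apart from the other 5 libraries, with reads in 35.6% and 38.4% of all bins, where the others had reads in 49.6% to 64.2%. WT replicate 1 had the most bins with reads. Between 71.7% and 83.6% of the bins with reads held an even number of them, so single reads cannot be treated as independent counts.

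Across the 328 windows of 5 kb that tile the domains, the same split between libraries was seen. Between the log2 levels of Tet2 CKO replicates 2 and 3 Pearson r was 0.592. Each of that pair had an r of 0.062 to 0.323 with the remaining 5 libraries, which had an r of 0.492 to 0.663 among themselves across both genotypes. Windows of a library are no replicates, since they share its depth and lie side by side. Each comparison is therefore given with and without Tet2 CKO replicates 2 and 3.

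The domains differed in their read levels. No correction was made for input DNA or for how readily reads map to a place, so differences between domains need not be in 5hmC alone. The Igf2r and Gnas domains were the richest in WT, at 0.668 ± 0.231 and 0.641 ± 0.0913 RPKM (SD, n = 3), where the autosomes averaged between 0.391 and 0.396 in the WT libraries. The Dlk1-Meg3 domain followed at 0.517 ± 0.126, the Mest domain at 0.463 ± 0.189 and the H19-Igf2-Kcnq1 domain at 0.422 ± 0.0595 (SD, n = 3). The Peg3 and Grb10 domains stood at 0.347 ± 0.0828 and 0.322 ± 0.0240 in WT, and the Snrpn domain was the poorest at 0.155 ± 0.0621 (SD, n = 3). Neighbours in this order differed by less than the larger of their SDs, apart from the step between the Grb10 and Snrpn domains.

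**Figure D1:**
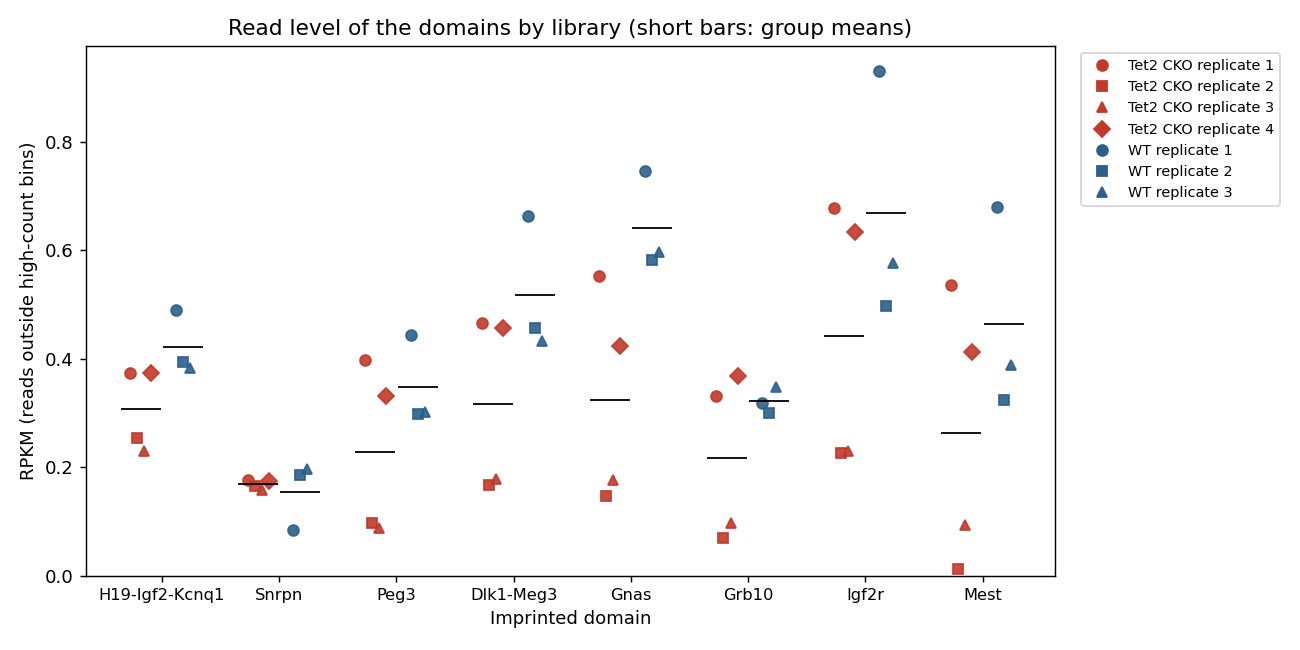
RPKM (vertical axis, linear from 0) in each of the 8 domains, 1 point per library, with Tet2 CKO libraries in red left of WT libraries in blue and short black bars at the group means. Tet2 CKO replicates 2 and 3 lie below all other libraries in every domain but Snrpn, where WT replicate 1 is lowest at 0.083.

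Within libraries, 3 domains held fewer reads per kb than their flanks in 7 of 7 libraries. In the Snrpn domain the ratio of domain to flank was 0.357, 0.240, 0.236 and 0.364 in Tet2 CKO replicates 1, 2, 3 and 4, against 0.199, 0.379 and 0.405 in WT replicates 1, 2 and 3. All 7 values lay far under 1, with a mean log2 ratio of -1.73 (SD 0.41, n = 7, exact permutation of signs, two-sided, p = 0.0156). In the H19-Igf2-Kcnq1 domain the ratio was 0.732, 0.824, 0.741 and 0.771 in Tet2 CKO replicates 1, 2, 3 and 4, against 0.751, 0.814 and 0.783 in WT replicates 1, 2 and 3. Over both sides together it was the most even of the 8, with a mean log2 ratio of -0.37 (SD 0.066, n = 7, exact permutation of signs, two-sided, p = 0.0156). Tet2 CKO replicates 2 and 3 stood at 1.82 and 1.74 against the left flank alone, and at 0.533 and 0.470 against the right. In the Grb10 domain the mean log2 ratio was -0.85 (SD 1.09, n = 7, exact permutation of signs, two-sided, p = 0.0156). Against its right flank alone the Grb10 domain stood at 1.41 in WT replicate 1 and 1.01 in WT replicate 3. For 7 libraries 0.0156 is the smallest p possible, and p-values of the 8 domains were not adjusted. Without Tet2 CKO replicates 2 and 3 the mean log2 ratio was -1.59 for Snrpn, -0.38 for H19-Igf2-Kcnq1 and -0.21 for Grb10, all 5 libraries staying below their flanks (exact permutation of signs, two-sided, p = 0.0625, the smallest for 5 libraries). With flanks of 100 kb the H19-Igf2-Kcnq1 domain no longer differed from them beyond the spread (mean log2 ratio -0.17, exact permutation p = 0.297), and with flanks of 400 kb Grb10 did not (-0.70, exact permutation p = 0.0781).

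The flanks of the Snrpn domain were unlike each other. On the left they held 0.738, 0.809, 0.763 and 0.712 RPKM in Tet2 CKO replicates 1, 2, 3 and 4, against 0.702, 0.698 and 0.668 in WT replicates 1, 2 and 3. On the right they held 0.245, 0.561, 0.577 and 0.252 in Tet2 CKO replicates 1, 2, 3 and 4, against 0.132, 0.275 and 0.299 in WT replicates 1, 2 and 3, with Tet2 CKO replicates 2 and 3 above all other libraries. Among the 800 flank bins of Snrpn, 159 had no read in any library, as had 8 of the 80 bins of the domain.

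The other 5 domains did not differ from their flanks beyond the spread between libraries over all 7. Mean log2 ratios were 0.053 for Gnas, 0.056 for Igf2r, -0.37 for Dlk1-Meg3, -0.63 for Mest and -0.64 for Peg3 (exact permutation of signs, two-sided, p between 0.156 and 0.750, n = 7). Outside Tet2 CKO replicates 2 and 3, the Gnas domain lay above its flanks in 5 of 5 libraries, with a mean log2 ratio of 0.27 (exact permutation of signs, two-sided, p = 0.0625, the smallest for 5 libraries). In the same 5 libraries the mean log2 ratio was 0.29 for Igf2r, 0.15 for Mest, 0.033 for Dlk1-Meg3 and -0.077 for Peg3 (exact permutation of signs, two-sided, p between 0.125 and 0.938).

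The comparison of genotypes asked whether imprinted domains hold a different 5hmC signal without Tet2. No domain differed between Tet2 CKO and WT libraries beyond the spread between libraries, either in its ratio to the flanks or in its level (exact permutation tests over the 35 splits of 7 libraries, two-sided, p between 0.114 and 0.857, where 0.0286 is the smallest possible). The Tet2 CKO libraries were themselves split. In 6 of the 8 domains, all but H19-Igf2-Kcnq1 and Snrpn, replicates 2 and 3 of Tet2 CKO both had a lower ratio than each of the other 5 libraries. In level, the log2 difference between Tet2 CKO and WT was -1.83 in Mest, -0.92 in Grb10, -0.91 in Peg3, -0.85 in Dlk1-Meg3 and -0.74 in Igf2r (exact permutation p between 0.286 and 0.400). It was 0.094, 0.12, 0.087, -0.14 and 0.025 in these 5 domains once Tet2 CKO replicates 2 and 3 were left out (exact permutation p between 0.4 and 1.0).

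Grb10 showed the deepest such gap among the domains with over 50 reads in every library. Its ratio was 0.815, 0.164, 0.208 and 0.917 in Tet2 CKO replicates 1, 2, 3 and 4, against 0.920, 0.752 and 0.919 in WT replicates 1, 2 and 3. Tet2 CKO replicates 2 and 3 were far below the other 5 libraries of both genotypes, by 2.22 on the log2 scale on average. The group means were 0.526 ± 0.395 in Tet2 CKO (SD, n = 4) and 0.864 ± 0.0969 in WT (SD, n = 3), a log2 difference of -1.11 (SE 0.66, exact permutation p = 0.286). Without Tet2 CKO replicates 2 and 3 the log2 difference was 0.0072 (exact permutation p = 1.0, with 0.1 the smallest for 2 against 3). The flanks of Grb10 were unlike each other. The left flank held 0.445, 0.251, 0.284 and 0.426 RPKM in Tet2 CKO replicates 1, 2, 3 and 4, against 0.465, 0.466 and 0.410 in WT replicates 1, 2 and 3, with Tet2 CKO replicates 2 and 3 lowest as in the domain. The right flank held 0.367, 0.601, 0.653 and 0.375 RPKM in Tet2 CKO replicates 1, 2, 3 and 4, against 0.226, 0.331 and 0.345 in WT replicates 1, 2 and 3, where replicates 2 and 3 of Tet2 CKO were the highest.

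The Peg3 domain showed the same split with fewer reads, 39 to 180 per Tet2 CKO library and 131 to 457 per WT library. Its ratio was 1.04, 0.264, 0.224 and 0.824 in Tet2 CKO replicates 1, 2, 3 and 4, against 1.27, 0.851 and 0.828 in WT replicates 1, 2 and 3. The group means were 0.587 ± 0.406 in Tet2 CKO (SD, n = 4) and 0.984 ± 0.250 in WT (SD, n = 3), a log2 difference of -1.02 (SE 0.60, exact permutation p = 0.257). Without replicates 2 and 3 of Tet2 CKO it was -0.061 (exact permutation p = 0.8).

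The Mest domain, the shortest, held 2 reads in Tet2 CKO replicate 2 and 18 in replicate 3, against 104 and 89 in Tet2 CKO replicates 1 and 4 and 61 to 300 in the WT libraries. Its ratio was 1.38, 0.0584, 0.465 and 0.980 in Tet2 CKO replicates 1, 2, 3 and 4, against 1.40, 0.827 and 1.09 in WT replicates 1, 2 and 3. The log2 difference between Tet2 CKO and WT was -1.30 (SE 1.05, exact permutation p = 0.371) and became 0.11 without Tet2 CKO replicates 2 and 3 (exact permutation p = 0.8). It rested on Tet2 CKO replicate 2, being -0.33 without that library and -1.33 without Tet2 CKO replicate 3. The log2 difference in level likewise was -0.68 without Tet2 CKO replicate 2 and -1.70 without replicate 3.

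For Dlk1-Meg3, whose genes include a growth regulator and a large cluster of non-coding RNAs, the ratio was 0.984, 0.363, 0.403 and 1.00 in Tet2 CKO replicates 1, 2, 3 and 4, against 1.24, 0.992 and 0.923 in WT replicates 1, 2 and 3. Tet2 CKO replicates 1 and 4 lay between the highest and the lowest WT library, and replicates 2 and 3 below all others. The group means were 0.688 ± 0.353 in Tet2 CKO (SD, n = 4) and 1.05 ± 0.166 in WT (SD, n = 3), a log2 difference of -0.76 (SE 0.42, exact permutation p = 0.286). It was -0.070 without Tet2 CKO replicates 2 and 3 (exact permutation p = 0.9).

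Igf2r was the domain with the highest WT level. Its ratio was 1.34, 0.648, 0.730 and 1.24 in Tet2 CKO replicates 1, 2, 3 and 4, against 1.48, 0.940 and 1.19 in WT replicates 1, 2 and 3. The log2 difference was -0.33 (SE 0.33, exact permutation p = 0.400), and 0.13 without Tet2 CKO replicates 2 and 3 (exact permutation p = 0.7). Single libraries moved it to -0.15 (without Tet2 CKO replicate 2), -0.21 (without Tet2 CKO replicate 3) or -0.17 (without WT replicate 1). In the other direction it moved to -0.498 (without Tet2 CKO replicate 1), -0.495 (without WT replicate 2) or -0.463 (without Tet2 CKO replicate 4).

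The levels of the groups did not overlap in 2 domains, with Tet2 CKO lower in both. How often regions of such lengths do so elsewhere was not counted. Among all 5 kb windows, with TMM scaling, Tet2 CKO was the lower group without overlap in 5.12% and the higher in 4.25%. The Gnas domain was 1 of the 2. Its level was 0.552, 0.146, 0.176 and 0.423 RPKM in Tet2 CKO replicates 1, 2, 3 and 4, against 0.747, 0.582 and 0.596 in WT replicates 1, 2 and 3. No Tet2 CKO value reached the WT range, with Tet2 CKO replicate 1 close to the lowest WT library and replicates 2 and 3 far below. The group means were 0.324 ± 0.196 in Tet2 CKO (SD, n = 4) and 0.641 ± 0.0913 in WT (SD, n = 3), a log2 difference of -1.19 (SE 0.48) that did not exceed the spread between libraries (exact permutation p = 0.114). The log2 difference was -0.40 without Tet2 CKO replicates 2 and 3, still without overlap (exact permutation p = 0.1, the smallest for 2 against 3). The flanks of Gnas held 0.437, 0.208, 0.239 and 0.403 RPKM in Tet2 CKO replicates 1, 2, 3 and 4. In WT replicates 1, 2 and 3 they held 0.640, 0.474 and 0.451 RPKM, so the groups did not overlap in the flanks either. The ratio to the flanks overlapped between the groups, at 1.26, 0.702, 0.736 and 1.05 in Tet2 CKO replicates 1, 2, 3 and 4, against 1.17, 1.23 and 1.32 in WT replicates 1, 2 and 3. Its log2 difference was -0.44 (SE 0.21, exact permutation p = 0.200) and -0.10 without Tet2 CKO replicates 2 and 3 (exact permutation p = 0.5).

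**Figure D2:**
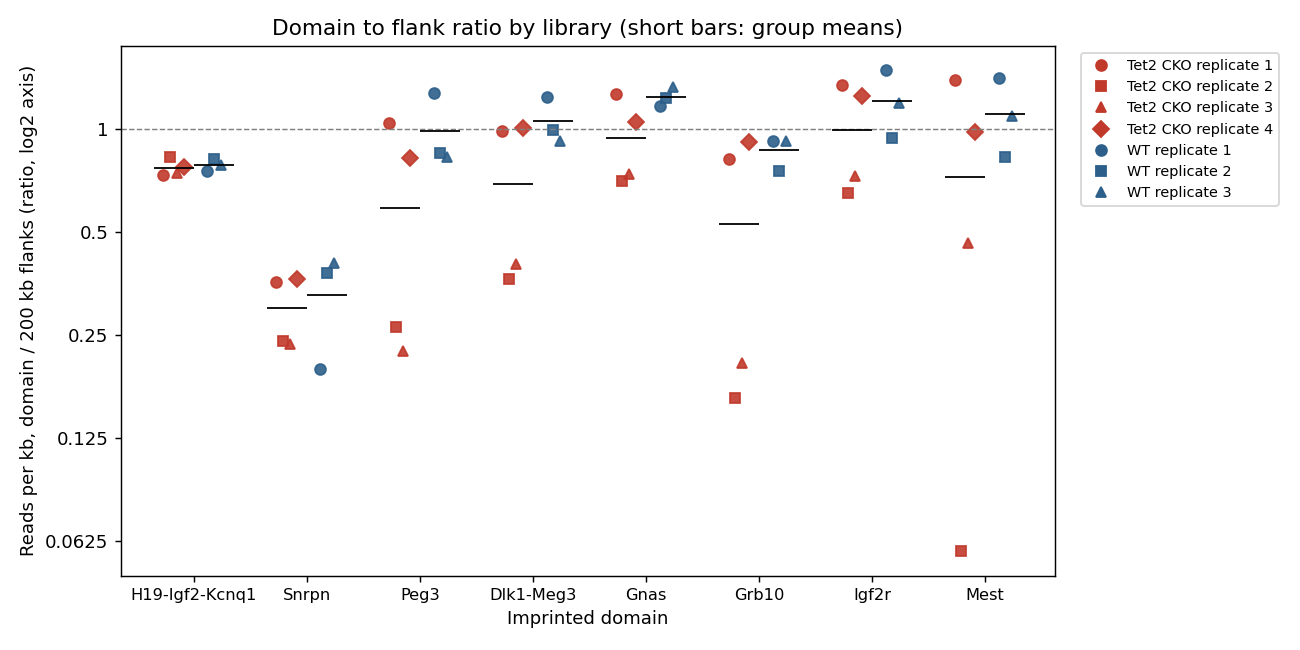
Ratio of reads per kb in each domain to reads per kb in its flanks of 200 kb on each side (vertical axis, log2 scale), 1 point per library, with Tet2 CKO libraries in red left of WT libraries in blue, short black bars at the group means and a dashed line at a ratio of 1. Tet2 CKO replicates 2 and 3 lie below the other 5 libraries in 6 domains but stand at 0.824 and 0.741 in H19-Igf2-Kcnq1, where the others lie between 0.732 and 0.814.

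The H19-Igf2-Kcnq1 domain was the other. Its level was 0.373, 0.253, 0.230 and 0.373 RPKM in Tet2 CKO replicates 1, 2, 3 and 4, against 0.490, 0.394 and 0.382 in WT replicates 1, 2 and 3. The groups did not overlap, since Tet2 CKO replicates 1 and 4 lay just below the lowest WT library. The group means were 0.307 ± 0.0765 in Tet2 CKO (SD, n = 4) and 0.422 ± 0.0595 in WT (SD, n = 3), a log2 difference of -0.48 (SE 0.22, exact permutation p = 0.143) and of -0.17 without Tet2 CKO replicates 2 and 3 (exact permutation p = 0.3). Scaled by the TMM factors used for windows in place of the reads outside high-count bins, the log2 difference was -0.34 and passed the threshold of 0.05 (exact permutation p = 0.0286, the smallest possible). The ratio to the flanks averaged 0.767 ± 0.0416 in Tet2 CKO (SD, n = 4) and 0.783 ± 0.0316 in WT (SD, n = 3), a log2 difference of -0.029 (SE 0.051, exact permutation p = 0.514). Its flanks were unlike each other. The left flank held 0.504, 0.139, 0.132 and 0.467 RPKM in Tet2 CKO replicates 1, 2, 3 and 4, against 0.784, 0.495 and 0.491 in WT replicates 1, 2 and 3, with Tet2 CKO replicates 2 and 3 lowest, while the right flank held 0.475 to 0.516 in Tet2 CKO and 0.472 to 0.522 in WT. With flanks of 100 kb the log2 difference turned to 0.44 (exact permutation p = 0.200).

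Segments of 50 kb showed that the sum over the H19-Igf2-Kcnq1 domain joins stretches that run in opposite directions. At chr7:149750001-149800000 the level was 0.570, 0.123, 0.112 and 0.465 RPKM in Tet2 CKO replicates 1, 2, 3 and 4, against 0.825, 0.510 and 0.457 in WT replicates 1, 2 and 3. Further in, at chr7:149950001-150000000, it was 0.358, 0.777, 0.707 and 0.383 RPKM in Tet2 CKO replicates 1, 2, 3 and 4, against 0.282, 0.356 and 0.406 in WT replicates 1, 2 and 3, so that Tet2 CKO replicates 2 and 3 were the lowest libraries in the first stretch and the highest in the second. From 149900001 to 150100000 the mean of Tet2 CKO exceeded that of WT in each segment. In the 3 segments up to 150050000 Tet2 CKO replicates 2 and 3 were above all other libraries. In the segment after these they were not, at 0.395 and 0.390 RPKM, with a mean of 0.417 in Tet2 CKO and 0.385 in WT. At chr7:150600001-150650000, the richest segment of the domain in WT, the level was 0.559, 0.128, 0.117 and 0.520 RPKM in Tet2 CKO replicates 1, 2, 3 and 4, against 0.875, 0.578 and 0.569 in WT replicates 1, 2 and 3. Of the 19 segments, 14 had a lower mean in Tet2 CKO and 5 a higher one. These segments were described and not tested.

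In the Dlk1-Meg3 domain all 7 segments had a lower mean in Tet2 CKO than in WT. Its segment at chr12:110880001-110930000 was the poorest in WT, at 0.330, 0.0743, 0.109 and 0.201 RPKM in Tet2 CKO replicates 1, 2, 3 and 4, against 0.144, 0.221 and 0.256 in WT replicates 1, 2 and 3. There Tet2 CKO replicate 1 was the highest library, and Tet2 CKO replicates 2 and 3 the lowest. The segment at chr12:110730001-110780000 was the richest in WT, at 0.50, 0.206, 0.268 and 0.552 RPKM in Tet2 CKO replicates 1, 2, 3 and 4, against 0.926, 0.537 and 0.50 in WT replicates 1, 2 and 3.

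**Figure D3:**
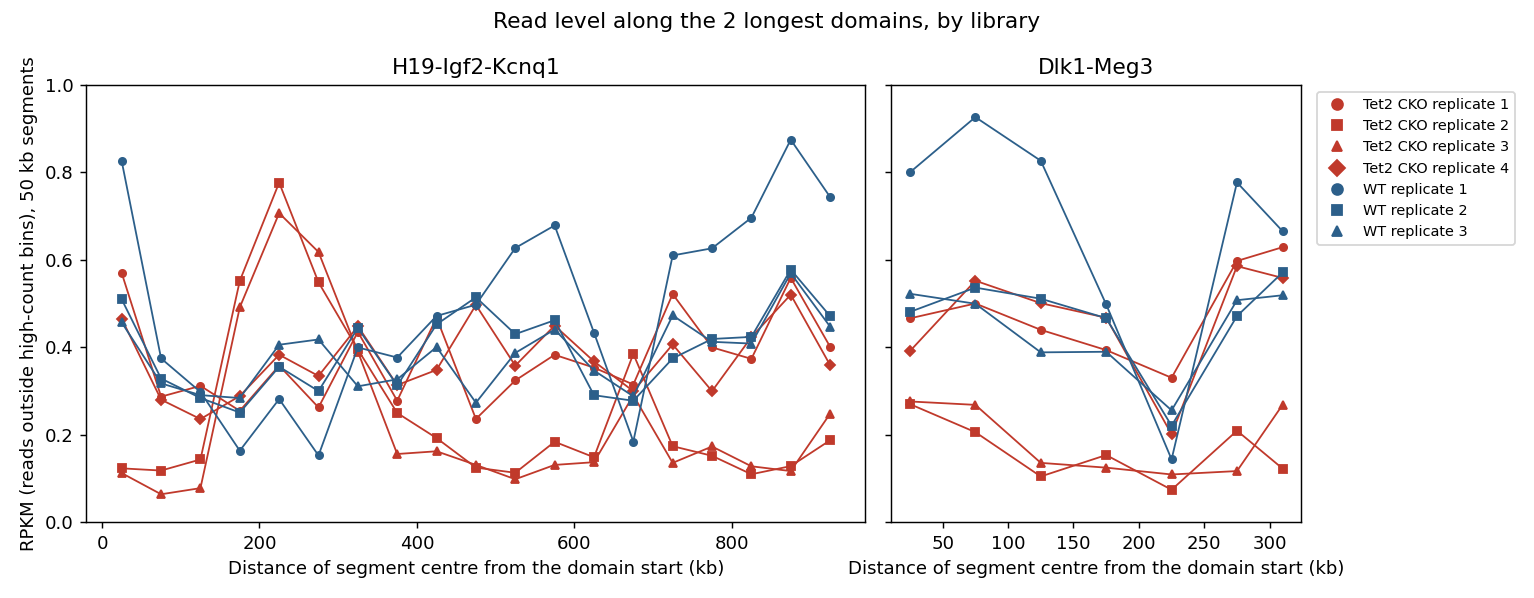
RPKM (vertical axis, linear from 0) in consecutive segments of 50 kb (the last of Dlk1-Meg3 is 20 kb), against the distance of the segment's centre from the domain start in kb, 1 line per library, with Tet2 CKO in red and WT in blue. In H19-Igf2-Kcnq1, Tet2 CKO replicates 2 and 3 reach 0.777 and 0.707 in the fifth segment and are the 2 lowest libraries in 14 of the 19 segments, and in Dlk1-Meg3 they are the 2 lowest libraries in each segment.

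The Snrpn domain held few reads, 78 to 101 per Tet2 CKO library and 93 to 117 per WT library. Its level was 0.176, 0.165, 0.158 and 0.175 RPKM in Tet2 CKO replicates 1, 2, 3 and 4, against 0.0831, 0.185 and 0.196 in WT replicates 1, 2 and 3. Tet2 CKO libraries were close to each other, and WT replicate 1 was the lowest of all 7. The log2 difference of 0.22 (SE 0.40, exact permutation p = 0.857) turned to -0.18 without WT replicate 1 (exact permutation p = 0.133). For the ratio to the flanks the log2 difference was -0.096 (SE 0.37, exact permutation p = 0.83), 0.20 without Tet2 CKO replicates 2 and 3 and 0.043, 0.091 and 0.0088 without WT replicate 2, WT replicate 3 or Tet2 CKO replicate 3.

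Windows of 5 kb were tested across the whole genome with edgeR's quasi-likelihood test. Of the 328 windows that tile the domains, 309 had a mean of at least 10 reads and were tested. None was past the threshold of 0.05 after Benjamini-Hochberg adjustment over all 450938 windows, and none of those windows was (0% called). On simulated counts the test called 0 of 50 windows changed 4-fold and 30 of 50 changed 16-fold. The lack of calls therefore does not show that windows were unchanged. DESeq2 with a local dispersion trend gave an adjusted p to 25 of the 309 windows and put none of them past the threshold, where 0.00400% of the 75002 windows with an adjusted p were called higher and 0% lower. Its unadjusted p was under 0.05 in 10 domain windows higher (11.9% of all windows) and 41 lower (5.72%). At unadjusted p under 0.05, edgeR gave 24 domain windows lower and 4 higher in Tet2 CKO, which is 7.77% and 1.29% of the domain windows, against 3.05% lower and 7.07% higher among all windows. In some domain windows the groups did not overlap. Tet2 CKO was the lower group in 32 of them (10.4% of domain windows, 5.12% of all windows) and the higher in 3 (0.971% and 4.25%).

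Tet2 CKO over WT, the log2 fold change was below 0 in 250 of the 309 domain windows (80.9%), against 51.3% of all windows. Its median was -0.62 in the domain windows and -0.031 over all windows. Windows of the flanks were not counted apart, so a shift particular to the domains was not tested. In level, the flanks of H19-Igf2-Kcnq1, Gnas, Igf2r and Mest were also lowest in Tet2 CKO replicates 2 and 3. Those of Snrpn and Grb10 were highest in these libraries, and those of Peg3 and Dlk1-Meg3 neither. By domain, the median log2 fold change was -0.82 in Gnas, -0.81 in Peg3, -0.77 in Mest, -0.63 in both H19-Igf2-Kcnq1 and Dlk1-Meg3, -0.50 in Grb10, -0.43 in Igf2r and -0.050 in Snrpn. Without Tet2 CKO replicates 2 and 3 the median was -0.21 in 312 domain windows tested, 205 of them below 0, and -0.033 over all windows, of which 52.3% were below 0. That fit gave 23 domain windows lower and 4 higher at unadjusted p under 0.05, against 2.06% lower and 1.59% higher among all windows. Leaving out WT replicate 1 alone brought the median to -0.34 in the domain windows and 0.024 over all windows, with -0.072 in Igf2r, -0.11 in Mest and -0.23 in Peg3. The median of Snrpn, over few windows, ran between -0.49 and 0.63 when each library was left out in turn. With the share of reads in high-count bins as a covariate, the median was -0.042 in the domain windows and -0.0028 over all windows. It gave 3 higher (1.07% of all windows) and 6 lower (1.08%) at unadjusted p under 0.05. The share and the position of Tet2 CKO replicates 2 and 3 go together, and the part of either in the lower domain windows was not tested.

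**Figure D4:**
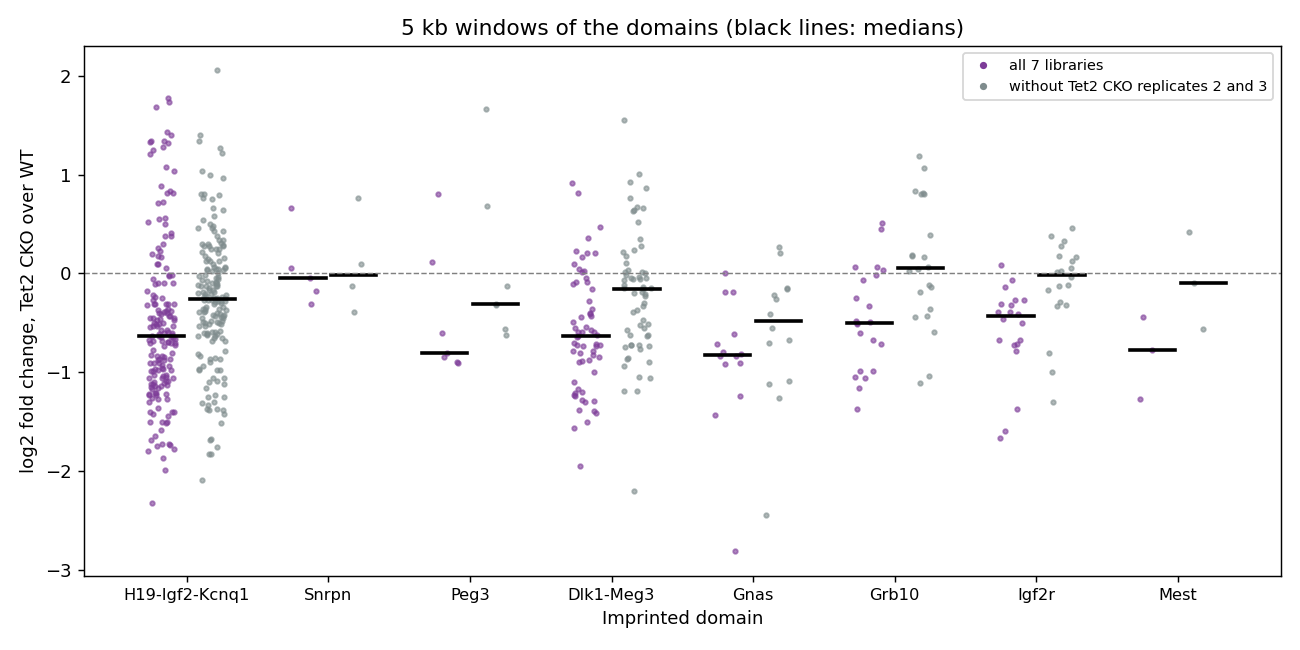
Log2 fold change of Tet2 CKO over WT (vertical axis) for the 5 kb windows of each domain, 1 point per window, in purple with all 7 libraries and in grey to their right without Tet2 CKO replicates 2 and 3, with black lines at the medians and a dashed line at 0. The medians run from -0.82 in Gnas to -0.050 in Snrpn with all libraries, and are nearer to 0 in each domain without those 2 libraries.

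The window with the smallest unadjusted p in the domains was the first of Gnas, chr2:174105001-174110000. It held 0.379, 0.0867, 0.208 and 0.226 CPM in Tet2 CKO replicates 1, 2, 3 and 4, against 2.30, 1.04 and 1.55 CPM in WT replicates 1, 2 and 3, CPM being counts per 1000000 reads with TMM scaling. All 4 Tet2 CKO libraries, replicates 1 and 4 among them, were below all WT libraries. The mean was 0.225 ± 0.120 CPM in Tet2 CKO (SD, n = 4) and 1.63 ± 0.634 CPM in WT (SD, n = 3), and the log2 fold change was -2.81 (SE 0.60, edgeR unadjusted p = 0.00017, adjusted p = 0.485). The log2 fold change was -2.45 without Tet2 CKO replicates 2 and 3, and between -3.18 and -2.48 when each library was left out in turn. The window was picked by its p from 309, so neither its size nor its order is independent support.

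In each of the other domains the window with the smallest p was likewise short of the adjusted threshold. In H19-Igf2-Kcnq1 it was chr7:150290001-150295000, with 0.632, 0.433, 0.167 and 0.509 CPM in Tet2 CKO replicates 1, 2, 3 and 4, against 2.27, 1.43 and 1.14 CPM in WT replicates 1, 2 and 3. The groups did not overlap (log2 fold change -1.87, SE 0.57, edgeR adjusted p = 0.485). In Igf2r it was chr17:12905001-12910000, with 0.664, 0.520, 0.125 and 0.594 CPM in Tet2 CKO replicates 1, 2, 3 and 4, against 2.19, 1.20 and 1.19 CPM in WT replicates 1, 2 and 3, again without overlap (log2 fold change -1.67, SE 0.59, edgeR adjusted p = 0.485). In Dlk1-Meg3 it was chr12:110695001-110700000, with 0.253, 0.173, 0.792 and 0.453 CPM in Tet2 CKO replicates 1, 2, 3 and 4, against 3.25, 0.812 and 0.733 CPM in WT replicates 1, 2 and 3. There the WT mean rested on WT replicate 1, and Tet2 CKO replicate 3 lay inside the WT range (log2 fold change -1.95, SE 0.66, edgeR adjusted p = 0.485). Leaving out WT replicate 1 brought the log2 fold change to -0.89. In Grb10 the window chr11:11865001-11870000 had a log2 fold change of -1.16 (SE 0.57) without overlap, and in Mest, Peg3 and Snrpn the named windows, at -1.27, -0.90 and 0.67, overlapped between the groups (edgeR adjusted p between 0.485 and 0.641 for these 4). Without WT replicate 1 the log2 fold change was -0.23 in the Peg3 window and 0.27 in the Snrpn window. Without Tet2 CKO replicate 2 that of Peg3 was -0.59, without Tet2 CKO replicate 3 that of Snrpn was 0.45, and without Tet2 CKO replicate 4 that of Mest was -2.03.

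Blocking on the replicate number, edgeR put 2.47% of all windows higher and 0.768% lower in Tet2 CKO past the adjusted threshold, and 6 of those lay in domains, 1 higher and 5 lower. Tet2 CKO replicate 4 has no WT library of its number and adds nothing to a log2 fold change with the block. Those fold changes rest on Tet2 CKO replicates 1, 2 and 3, and the labels name no pairing by number. All 6 had an edgeR adjusted p of 0.0489, just inside the threshold of 0.05. The first window of Gnas was among them (log2 fold change -2.91 with the block). Another pair adjoined each other at chr7:150645001-150655000 in H19-Igf2-Kcnq1. The first held 0.854, 0.347, 0.417 and 1.39 CPM in Tet2 CKO replicates 1, 2, 3 and 4, against 3.06, 2.40 and 2.36 CPM in WT replicates 1, 2 and 3. The second held 0.822, 0.217, 0.292 and 1.08 CPM in Tet2 CKO replicates 1, 2, 3 and 4, against 2.87, 1.66 and 1.57 CPM in WT replicates 1, 2 and 3, and in both the groups did not overlap. The higher one, chr7:150405001-150410000, held 1.23, 4.33, 4.71 and 1.39 CPM in Tet2 CKO replicates 1, 2, 3 and 4, against 0.261, 1.01 and 1.30 CPM in WT replicates 1, 2 and 3, where Tet2 CKO replicates 2 and 3 stood far above the rest and the other 2 lay inside or just above the WT range. The last 2 were chr7:150210001-150215000 and chr12:110830001-110835000 (log2 fold changes -3.54 and -1.93 with the block).

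The counts at unadjusted p under 0.05 moved with single libraries and with the scaling, and so did the shares of all windows. Without WT replicate 1, 2 domain windows were higher (1.66% of all windows) and 6 lower (0.807%). Without Tet2 CKO replicate 1 the counts were 9 higher (11.2%) and 52 lower (6.27%), and without Tet2 CKO replicate 4 they were 8 higher (11.1%) and 45 lower (5.62%). Leaving out Tet2 CKO replicate 2 gave 2 higher (3.43%) and 18 lower (1.68%). With library size only, 0 were higher (0.337%) and 31 lower (5.07%), and with the block 12 were higher (13.6%) and 92 lower (12.0%). In each of these edgeR fits the share lower among the 309 or fewer domain windows exceeded that among all windows.

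Single bins of 500 bp held few reads and were described and not tested. The richest bin of any domain was chr7:150060501-150061000 in H19-Igf2-Kcnq1, at 23.5 times the mean level of its domain. It held 35, 106, 96 and 40 reads in Tet2 CKO replicates 1, 2, 3 and 4, against 26, 38 and 52 in WT replicates 1, 2 and 3. Scaled to the library, Tet2 CKO replicates 2 and 3 were the highest and WT replicate 1 the lowest. The second of that domain, chr7:150016001-150016500, held 1.85, 5.23, 6.40 and 2.22 RPKM in Tet2 CKO replicates 1, 2, 3 and 4, against 1.22, 5.71 and 2.95 in WT replicates 1, 2 and 3. The second bin lies in, and the first just past, the stretch where Tet2 CKO replicates 2 and 3 had the highest segment levels.

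In the Gnas domain the 2 richest bins adjoined each other, chr2:174154001-174155000, at 8.70 and 5.96 times the mean of the domain. The first had 28, 4, 4 and 10 reads in Tet2 CKO replicates 1, 2, 3 and 4, against 59, 38 and 82 in WT replicates 1, 2 and 3. The second had 16, 0, 0 and 9 reads in Tet2 CKO replicates 1, 2, 3 and 4, against 52, 17 and 69 in WT replicates 1, 2 and 3, and the groups did not overlap in its level.

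In Dlk1-Meg3 the richest bin, chr12:110787501-110788000, had 20, 0, 0 and 22 reads in Tet2 CKO replicates 1, 2, 3 and 4, against 65, 18 and 14 in WT replicates 1, 2 and 3. The second, chr12:110737001-110737500, had 7, 16, 21 and 14 reads in Tet2 CKO replicates 1, 2, 3 and 4, against 18, 9 and 9 in WT replicates 1, 2 and 3. In level, replicates 2 and 3 of Tet2 CKO were the highest there. In Grb10 the richest bin, chr11:11926001-11926500, had 14, 0, 2 and 19 reads in Tet2 CKO replicates 1, 2, 3 and 4, against 15, 24 and 22 in WT replicates 1, 2 and 3. In Igf2r the richest, chr17:12955001-12955500, had 34, 24, 8 and 16 reads in Tet2 CKO replicates 1, 2, 3 and 4, against 28, 12 and 23 in WT replicates 1, 2 and 3. In level Tet2 CKO replicate 1 was the highest there and Tet2 CKO replicate 3 the lowest. The richest 2 bins of Snrpn adjoined each other at chr7:67141001-67142000 and held 91 and 57 of the 659 reads of the domain, the right one the more. The higher of them had 6, 16, 18 and 6 reads in Tet2 CKO replicates 1, 2, 3 and 4, against 7, 14 and 24 in WT replicates 1, 2 and 3, with Tet2 CKO replicates 2 and 3 inside the WT range.

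In all 8 domains, replicates 2 and 3 of Tet2 CKO had the fewest bins with any read. In the Igf2r domain the share of bins with reads was 74.0, 32.5, 41.5 and 77.5% in Tet2 CKO replicates 1, 2, 3 and 4, against 95.5, 65.5 and 78.5% in WT replicates 1, 2 and 3. Across the 8 domains the share ran from 3.33% to 41.5% in Tet2 CKO replicates 2 and 3, from 28.8% to 77.5% in Tet2 CKO replicates 1 and 4, and from 33.8% to 95.5% in WT. This share rises with depth, and WT replicate 1 had the most reads outside the high-count bins. Tet2 CKO replicate 3 had 12817375 such reads and WT replicate 2 had 12599351, with reads in 38.4% and 49.6% of all bins. The part of depth in the low shares of Tet2 CKO replicates 2 and 3 was not tested. In the Snrpn domain the share of bins with reads ran against the level, since WT replicate 1 had the highest share, 38.8%, and the lowest level.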

How the data were processed

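Libraries of 5hmC-enriched hippocampal DNA (4 Tet2 CKO, 3 WT) were read from the authors' deposited table of raw read counts in bins of 500 bp on mm9. Bowtie2, HOMER, DESeq2 and mm9 are named per the submitters' processing notes, but the sources used here give no versions or roles for them and no handling of duplicate reads. The input DNA was not used here, and the deletion of Tet2 was not checked, since these counts do not measure it. The domains and tests were chosen with earlier results of these data known.

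Levels are RPKM computed here, reads per kb per 1000000 reads outside bins with over 100 reads on average. Ratios divide reads per kb of a domain by those of 200 kb on each side, with the same bins left out. Domain values were compared with exact permutation tests, two-sided, not adjusted over the 8 domains. Counts summed over windows of 5 kb with a mean of at least 10 were tested with edgeR 4.0.16 (TMM, quasi-likelihood) in R 4.3.3, with Benjamini-Hochberg adjustment over 450938 windows, and the scripts were tested on simulated data. Of 50 simulated windows changed at each fold, edgeR called 0 at 2-fold, 0 at 4-fold, 9 at 8-fold and 30 at 16-fold. It made 3 false calls. DESeq2 1.42.0 gave an alternative, and an adjusted p it did not compute was left missing. Tables were handled with Python 3.11.15, pandas 2.3.3 and scipy 1.17.1.

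Named regions are, in each domain, the 2 bins with the highest mean level over the 7 libraries and the window with the smallest unadjusted p. The 6 windows called with the replicate block and the segments described were picked after their values were seen. Whether same-numbered libraries form pairs was checked on 306072 autosomal windows. Their deviations from the group means correlated at 0.529, 0.282 and 0.326, all above the criterion of 0.1. The numbers were treated as pairs in the replicate block only, and the main tests did not pair libraries. The labels name no shared animal, litter or day. Libraries that share no number passed the criterion too. Tet2 CKO replicate 4 and WT replicate 1 correlated at 0.505. Tet2 CKO replicate 2 and WT replicate 3 correlated at 0.340, and Tet2 CKO replicate 3 and WT replicate 2 at 0.269. The check therefore cannot tell same-numbered libraries from others. Alternatives were other flanks, scalings, filters and window sizes, a covariate, the replicate block, and leaving out libraries. Intervals for counting error and limits for a count of 0 are not given, since reads came mostly in even numbers.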

Additional observations from a re-analysis of the deposited data

How the results depend on the processing

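The log2 difference of the ratio to the flanks between Tet2 CKO and WT kept its direction in 96 of 104 alternatives over the 8 domains, that of the level in 82 of 88. In 72 of each the libraries left cannot give a p under 0.05. The side of the threshold could change only in the other 32 and 16, and did in 0 and 1. Some alternatives could not move the result. Leaving out bins with no read in any library scales the ratio of every library alike, and gave the main difference in all 8 domains. Keeping high-count bins changed Grb10 only (-1.18). The replicate block repeated the differences found without Tet2 CKO replicate 4, so these counts are not of separate checks. Without Tet2 CKO replicates 2 and 3 the ratio's sign turned in Snrpn (0.20), Grb10 (0.0072), Igf2r (0.13) and Mest (0.11), and the level's in Peg3 (0.087), Grb10 (0.12), Igf2r (0.025) and Mest (0.094). With flanks of 100 kb the ratio of H19-Igf2-Kcnq1 turned to 0.44. Scaled by all reads of the library the level of Snrpn turned to -0.33, and with TMM scaling the level of H19-Igf2-Kcnq1 was -0.34 and passed the threshold. Leaving out 1 library, Snrpn ran between -0.42 and 0.091 in the ratio and between -0.18 and 0.44 in the level.

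Against the flanks, the mean log2 ratio of H19-Igf2-Kcnq1 was -0.17 with flanks of 100 kb, -0.35 in WT libraries alone and -0.38 without Tet2 CKO replicates 2 and 3. That of Snrpn was -1.68 and -1.59 in those last 2 settings, and that of Grb10 was -0.70 with flanks of 400 kb, -0.22 in WT alone and -0.21 without the 2 libraries. None of these passed the threshold, which 3 or 5 libraries cannot reach. In Dlk1-Meg3 it turned to 0.061 in WT alone and 0.033 without the 2 libraries, and in Mest to 0.11 and 0.15.

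With the replicate block, 6 domain windows were called, where 2.47% of all windows were called higher and 0.768% lower. At unadjusted p under 0.05, 12 domain windows were higher (13.6% of all windows) and 92 lower (12.0%). Without the block 0 were called (0%), 4 were higher (7.07%) and 24 lower (3.05%). The block also put the named window of Gnas past the threshold (-2.91) and changed no call of the other named windows, and for the ratios and levels of domains 3 pairs allow no p under 0.25. The counts were 10 higher (11.9% of all windows) and 41 lower (5.72%) with DESeq2. With library size only 0 were higher (0.337%), and with the high-count share as a covariate 6 were lower (1.08%). Leaving out 1 library, 0 windows were called, 2 to 9 were higher and 6 to 52 lower at unadjusted p under 0.05. The lower count was 6 without WT replicate 1 (0.807% of all windows), 52 without Tet2 CKO replicate 1 (6.27%) and 45 without Tet2 CKO replicate 4 (5.62%). The higher count was 2 without WT replicate 1 (1.66%) or Tet2 CKO replicate 2 (3.43%). It was 9 without Tet2 CKO replicate 1 (11.2%) and 8 without Tet2 CKO replicate 4 (11.1%). The named window of Snrpn turned to -0.040 with library size only and -0.20 with the covariate, and that of Peg3 to 0.15 with the covariate. With library size only log2 fold changes had a median of -0.58 over all windows and of -1.06 in the domain windows. The cause of these changes was not tested. The numbers of reads limit Mest, Snrpn and Peg3 most.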
